A study of Mus musculus with 3 samples.

Results

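The 36 genes described here encode proteins that copy DNA or divide the chromosomes, and they were chosen by their symbols out of the 55536 genes annotated in the tables. All 36 symbols were found. RNA came from the chromatin fraction of primary C57BL/6J mouse macrophages grown from bone marrow (BMDM), a preparation that keeps RNA still held at its gene together with unspliced RNA. The cells had 100 ng/ml lipid A, the endotoxin part that Toll-like receptor 4 detects, for 12 h. They were then kept for 12 h after washing, and were given 100 ng/ml lipid A again for 30 min. This was the 1 group labelled, with 3 biological replicates that share a donor identifier. No untreated, once-treated or mature-RNA sample was analysed here, so the values are levels and carry no effect of lipid A. Age and sex were not collected, per the labels. Because only the donor identifier and separate biosamples are given, p-values measure the spread between these 3 libraries.

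Most of these genes are switched on in waves during the cell cycle. Origins of replication are licensed in G1 when ORC, Cdc6 and Cdt1 load the Mcm2-7 helicase, and E2F factors turn on these genes as cells enter S phase. Later, in G2 and M, factors that bind CHR and CCAAT boxes in promoters turn on the cyclin B, kinase, spindle and kinetochore genes, and the DREAM complex of RB-family proteins holds both sets low in resting cells. Macrophages grown from marrow divide in response to the growth factor Csf1, and lipid A is known to slow that division. For bulk samples such as these, fewer dividing cells and less RNA per cell cannot be told apart.

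Licensing and replication genes were detected at low to moderate levels in all 3 libraries, whereas the late mitotic genes spanned a wide range that reached almost 0. Levels are given in TPM, transcript abundance corrected for length and scaled to a fixed sum, so that genes can be compared with each other. Mki67, which coats mitotic chromosomes, was the highest member at a mean of 32.4 ± 19.1 TPM (SD, n = 3), and Pcna, the sliding clamp of DNA polymerases, was next at 23.0 ± 1.1 TPM. Ube2c and Cdc20, which drive the anaphase-promoting complex, were lowest at 0.04 ± 0.0458 and 0.0467 ± 0.0115 TPM. The median member stood at 1.81 TPM, beside 2.02 TPM for all 24180 genes with any signal and 4.17 TPM for the 15120 protein-coding genes among them.

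Each gene was tested against a floor of 1 TPM with limma on log2(TPM + 0.1), in both directions, with Benjamini-Hochberg adjustment over all genes tested and a threshold of 0.05. Of the 36 members, 19 were called above 1 TPM, 6 below, and 11 neither way. By comparison, 51.1% of all genes tested and 61.8% of protein-coding genes tested were above. The share called below was 31.7% of all genes and 26.1% of protein-coding genes. The members' share above, 52.8%, was therefore near that of all genes. Split by role, 12 of the 16 replication and G1/S members were above and 0 below, with a median of 3.53 TPM. Of the 20 mitotic members, 7 were above and 6 below, with a median of 1.24 TPM. Those 6 were Ccnb2, Plk1, Cdc20, Ube2c, Kif20a and Cenpf. The ranges overlap: the replication members ran from Ccne1 at 0.71 TPM to Pcna at 23.0 TPM, and the mitotic ones from Ube2c at 0.04 TPM to Mki67 at 32.4 TPM.

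**Figure D1:**
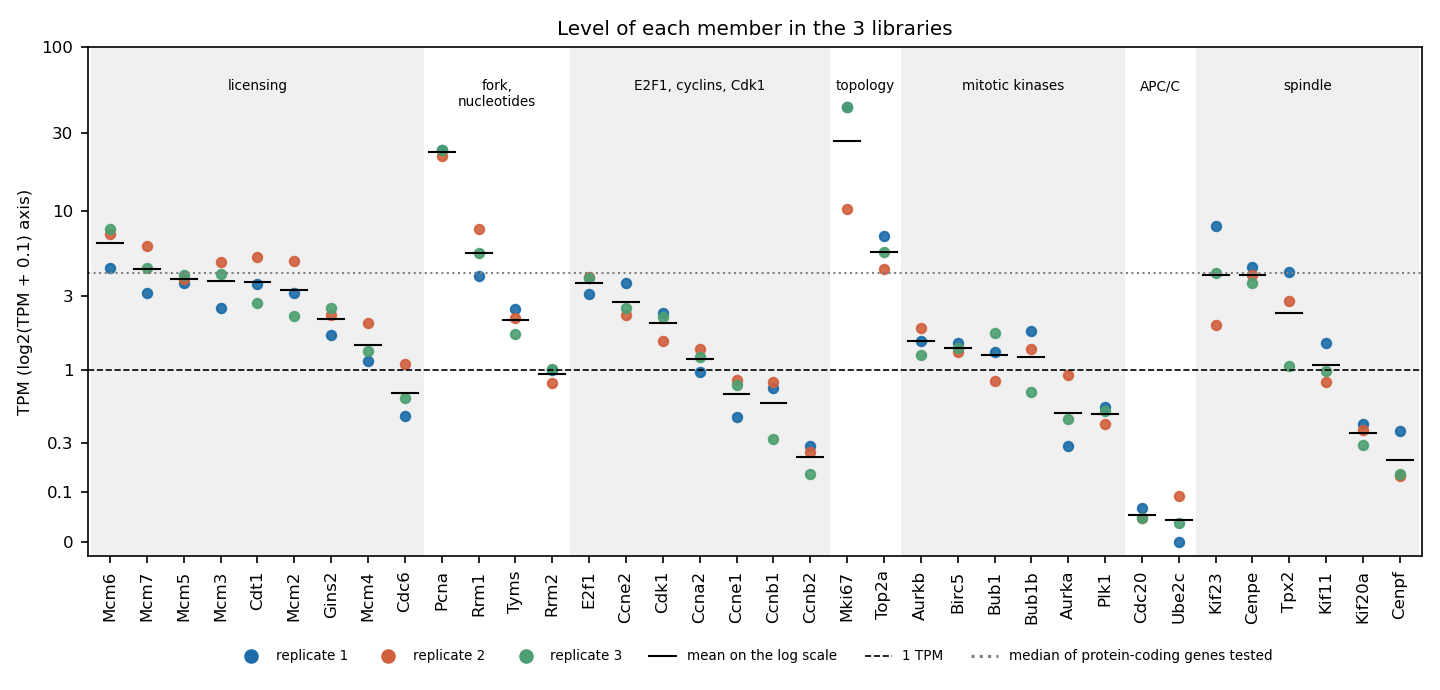
Level of the 36 members in TPM, on a log2(TPM + 0.1) axis, with 1 point per library and a bar at the mean of the log values; members are grouped by role and the dashed line marks 1 TPM. Mki67 stands at 43.42, 10.37 and 43.34 TPM (the first point lies under the third) and Cdc20 and Ube2c lie under 0.1 TPM in every library.

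Promoter letters of 4 members are shown first because they carry the boxes that the background above names, and because the genes lie at opposite ends of the range of levels. They were chosen after their levels were seen. Capitals mark E2F-type letters (TTGGCGC, or TTCGCGC, or TTCCCGC, or TTGCCGC), CHR-type letters (TTTGAA or TTCGAA) and CCAAT, each searched on both strands. Each is the 250 bases before the RefSeq start site, from build GRCm38.p6, written 5′ to 3′ along the gene.

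Mki67, chr7:135716380-135716629, minus strand: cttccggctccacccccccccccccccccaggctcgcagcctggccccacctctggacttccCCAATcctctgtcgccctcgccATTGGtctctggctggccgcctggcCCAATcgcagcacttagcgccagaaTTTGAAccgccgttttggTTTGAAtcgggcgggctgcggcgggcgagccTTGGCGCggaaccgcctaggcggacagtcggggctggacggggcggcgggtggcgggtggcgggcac

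Mcm6, chr1:128359706-128359955, minus strand: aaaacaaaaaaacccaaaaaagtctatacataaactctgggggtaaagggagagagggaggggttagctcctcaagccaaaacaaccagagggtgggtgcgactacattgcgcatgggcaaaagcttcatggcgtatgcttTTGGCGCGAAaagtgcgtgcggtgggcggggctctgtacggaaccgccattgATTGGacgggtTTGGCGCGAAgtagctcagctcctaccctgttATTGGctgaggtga

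Ccnb2, chr9:70421555-70421804, minus strand: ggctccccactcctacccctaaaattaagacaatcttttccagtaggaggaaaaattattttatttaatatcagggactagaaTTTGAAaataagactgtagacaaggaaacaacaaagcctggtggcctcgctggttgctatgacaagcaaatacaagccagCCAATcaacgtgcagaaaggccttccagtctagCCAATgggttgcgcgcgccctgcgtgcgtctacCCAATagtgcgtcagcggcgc

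Cdc20, chr4:118437344-118437593, minus strand: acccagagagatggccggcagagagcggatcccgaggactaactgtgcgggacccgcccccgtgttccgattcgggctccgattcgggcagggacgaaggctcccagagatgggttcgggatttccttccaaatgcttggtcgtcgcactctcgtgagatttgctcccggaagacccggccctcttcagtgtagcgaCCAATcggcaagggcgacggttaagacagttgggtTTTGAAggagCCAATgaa

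The Mki67 stretch holds all 3 kinds of letters, with E2F-type letters starting 67 bases before the start site and CHR-type letters 98 and 116 bases before it. The Mcm6 stretch has E2F-type letters on both strands, overlapping each other, 109, 106, 46 and 43 bases before the start, and no CHR-type letters. In Ccnb2 and Cdc20 the letters are CHR-type and CCAAT, with no E2F-type match. Over windows of 300 bases (250 before to 50 after the start), 30 promoters were found for 29 members with a RefSeq entry outside a chromosome left out here. E2F-type letters were in 40% of these 30, against 9.57% of all 32851 promoters of the same length. CHR-type letters were in 50% against 19.2%, CCAAT in 80% against 37.4%, and CHR-type letters with CCAAT in 50% against 7.52%. By gene, E2F-type letters were in 8 of 13 replication and G1/S members and 3 of 16 mitotic members, and CHR-type letters with CCAAT were in 2 of 13 and 13 of 16. A match is a run of letters only. Ccnb2, at 0.28, 0.25 and 0.16 TPM, and Mki67, at over 10 TPM in every library, both had CHR-type letters with CCAAT.

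In the licensing set, 7 of 9 members were above 1 TPM and 0 below, and none was under 0.48 TPM in any library. Mcm2 to Mcm7 form the ring that unwinds DNA at the fork. Mcm6 was the highest of them, at 4.49, 7.27 and 7.84 TPM in replicates 1, 2 and 3 (limma adjusted p = 0.000519 above 1 TPM). Mcm7 followed at 3.14, 6.16 and 4.46 TPM, and Mcm5 was at 3.63, 3.83 and 4.08 TPM. Mcm3 was at 2.53, 4.88 and 4.11 TPM. Mcm6 was above these 3 genes in every library, and its range lay wholly above that of Mcm5, while the ranges of Mcm7, Mcm5 and Mcm3 overlap. Mcm2 stood at 3.12, 4.92 and 2.26 TPM. Mcm4 was lowest of the ring at 1.15, 2.02 and 1.33 TPM and was called neither way (limma adjusted p = 0.0758). As proteins the subunits sit in the ring at 1 copy each, which RNA levels on chromatin do not measure. Mcm6 was 3.9, 3.6 and 5.89 times Mcm4 in the 3 libraries, with ranges that did not overlap. Of the Mcm6 level, 1.44, 1.49 and 4.12 TPM lay on Mcm6-202, a transcript of 471 bases that keeps an intron. It had 4, 5 and 14 expected counts, and no such transcript of Mcm4 is annotated.

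The loaders of that ring differed from each other. Cdt1, which brings the helicase to origins, was at 3.55, 5.24 and 2.7 TPM and above the floor. Cdc6, the ATPase that works beside it, was at 0.48, 1.1 and 0.65 TPM and was called neither way. Cdt1 was 7.4, 4.76 and 4.15 times Cdc6, and every Cdt1 value was above every Cdc6 value. Gins2, part of the GINS complex that activates the helicase, was at 1.69, 2.29 and 2.53 TPM and called above, a call lost (limma adjusted p = 0.242) in the second transcript table, which was made directly from the reads. Gins2 overlaps Gse1 on the opposite strand (9.49, 12.37 and 10.7 TPM), and whether strand was used in counting is not given in the sources used here, so its value is uncertain.

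At the fork, Pcna differed less between libraries than any other member detected in all 3. Its levels were 23.7, 21.76 and 23.64 TPM, a difference of 1.09 times between the highest and lowest library, and 80.3% of protein-coding genes tested were below its mean. Pcna shares 38% of the 31-base words of its coding transcript with other annotated genes, most of them with the pseudogene Pcna-ps2, so some reads could belong to either.

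The ribonucleotide reductase subunits were unequal. This enzyme makes deoxynucleotides from a large subunit, Rrm1, and a small one that is Rrm2 in dividing cells and Rrm2b in resting ones. Rrm1 was at 3.98, 7.81 and 5.56 TPM, and Rrm2 was at 1.0, 0.82 and 1.02 TPM, with no overlap. Rrm1 was thus 3.98, 9.52 and 5.45 times Rrm2. Rrm2b was 5.05, 7.96 and 5.16 times Rrm2. Rrm2 rested on 10, 13 and 14 expected counts. Both ratios were larger in the second transcript table, at 10.6, 22.6 and 24.2 and at 7.45, 16.7 and 16.1. Most of the Rrm1 level there lay on transcripts that keep an intron. These were Rrm1-203, at 7.75, 8.62 and 8.55 TPM, and Rrm1-204, at 3.83, 3.86 and 3.8 TPM. The coding transcript Rrm1-201 was at 1.8, 2.04 and 2.34 TPM in the first transcript table and 1.74, 1.95 and 1.92 in the second. Tyms, which makes thymidylate, was at 2.49, 2.19 and 1.73 TPM and above the floor (limma adjusted p = 0.005).

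E2f1, the activator of the G1/S genes, was at 3.08, 3.93 and 3.87 TPM. The E-type cyclins that start S phase with Cdk2 differed from each other: Ccne2 was at 3.63, 2.28 and 2.53 TPM, and Ccne1 at 0.47, 0.86 and 0.8 TPM. The Ccne2 values were all above the Ccne1 values, by 7.72, 2.65 and 3.16 times. In the second transcript table these ratios were 2.44, 1.04 and 1.47, and Ccne1 was called above 1 TPM (limma adjusted p = 0.000563). Most of Ccne1 there, 2.96, 4.51 and 3.6 TPM, lay on Ccne1-202, a transcript of 656 bases marked for nonsense-mediated decay. The coding Ccne1-201 was at 0.18, 0.62 and 0.22 TPM. Of the Ccne2 level there, 4.34, 2.44 and 2.37 TPM lay on Ccne2-206, a non-coding transcript of 461 bases. Ccne2 overlaps Ints8 on the opposite strand (24.95, 25.59 and 21.37 TPM) over 2200 bases of its exons, so its value is uncertain. Ccna2, the cyclin of S phase and G2, was at 0.97, 1.38 and 1.23 TPM and was called neither way. In the second transcript table Ccna2 was called above 1 TPM (limma adjusted p = 0.0261). It overlaps Exosc9 on the opposite strand (6.68, 12.8 and 7.49 TPM) over 863 bases of its exons, so its value is uncertain too.

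Cdk1, the kinase that starts mitosis, was above the floor at 2.35, 1.56 and 2.22 TPM, while both of its B-type cyclins were lower. Its expected counts were 23, 49 and 14. Short transcripts that keep an intron held 1.46 TPM in replicate 1 (Cdk1-204, 4.09 counts) and 1.67 TPM in replicate 3 (Cdk1-203, 3.54 counts). The coding transcript Cdk1-201 was at 0.31, 0.57 and 0.05 TPM, and Cdk1-202 at 0.35, 0.49 and 0.51 TPM. The Cdk1 level is therefore uncertain. Ccnb1 stood at 0.76, 0.84 and 0.32 TPM and was called neither way. It rested on 6, 14.55 and 4 expected counts, of which 100%, 35.8% and 69.5% fell on transcripts that keep an intron. Ccnb2 stood at 0.28, 0.25 and 0.16 TPM, from 4, 5 and 3 expected counts, and was called below (limma adjusted p = 0.00219). Every library put Ccnb1 above Ccnb2, by 2.71, 3.36 and 2.0 times. In the second transcript table the ratios were 0.972, 1.96 and 1.69, so that replicate 1 turned the other way. The call of Ccnb2 was also lost there (limma adjusted p = 0.137). Because Ccnb2 has only a coding transcript annotated, the ratios of Ccnb1 to Ccnb2 do not compare coding RNA alone. The value of Ccnb1 is also uncertain because 46.9% of the 31-base words in its longest coding transcript recur in other genes, mostly in Ccnb1-ps.

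The members that act on whole chromosomes were both above the floor. Top2a, which untangles sister DNA, was at 7.08, 4.43 and 5.66 TPM with counts of 174, 218 and 215. Mki67 had 4614, 1622 and 6333 expected counts, that is 70%, 33.6% and 71.0% of the counts of all 36 members together. Without Mki67, the TPM of the members summed to 99.9, 103 and 95.1.

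Mki67 was also the least even member. It stood at 43.42 TPM in replicate 1, 10.37 in replicate 2 and 43.34 in replicate 3, so that the highest library was 4.19 times the lowest while replicates 1 and 3 were nearly equal. Libraries were also compared in log2 CPM (counts scaled to library size by TMM, with no length correction). A shift is the library minus the mean of the others, less the median of that difference over protein-coding genes. For Mki67 in replicate 2 the shift was -2.13. Of 10850 protein-coding genes that passed the count filter, 22 (0.203%), Mki67 included, had a replicate 2 shift as low. Its biological coefficient of variation, edgeR's estimate of the spread between libraries, was 0.433, above that of 99.4% of protein-coding genes and beside a median of 0.201. The level was still above 1 TPM (limma log2 level over the floor 4.62 ± 0.51 SE, adjusted p = 0.0011), and adjusted p was 0.0508 when every annotated gene entered the fit.

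All the Mki67 counts of the first transcript table fell on 1 coding transcript of 10061 bases, and replicate 2 was also lowest in the second transcript table, at 57.91, 14.94 and 52.56 TPM. Mki67 lies on the minus strand of chromosome 7 from 135689784 to 135716361 (mm10). An unverified transcript model on the opposite strand inside its span and outside its exons, Gm45240, had 23.66, 5.68 and 26.64 TPM, and so was lowest in the same library. Replicate 2 had the smallest RNA input, 250 ng against 1 µg and 500 ng, and the input amount and the replicate cannot be told apart. Its total of expected counts, 18395358, was close to that of replicate 3. Marker genes of myeloid progenitors summed to 1.65, 0.19 and 1.03 TPM, from only 23, 8 and 25 expected counts. Their part in the Mki67 difference was not tested.

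Among mitotic kinases and checkpoint proteins, levels sat close to the floor. Aurkb, the kinase of the chromosomal passenger complex, was at 1.56, 1.89 and 1.26 TPM. Birc5 (survivin), its partner, was at 1.51, 1.31 and 1.4 TPM. Both were called above 1 TPM (limma adjusted p = 0.0311 and 0.0351), and both calls were lost when any 1 library was left out, with adjusted p between 0.0543 and 0.138. Aurka, the spindle-pole kinase, was at 0.28, 0.93 and 0.46 TPM. Aurkb was 5.57, 2.03 and 2.74 times Aurka, and every Aurkb value was above every Aurka value. In the second transcript table the ratios were 1.06, 1.8 and 1.05 and the ranges overlap, and Aurka was called above 1 TPM there (limma adjusted p = 0.0029). In the gene table Aurkb rested on 14, 26 and 16 expected counts and Aurka on 5, 12 and 11. The coding transcripts Aurkb-201 and Aurkb-202 were at 0.47, 0.66 and 0 TPM and at 0, 0.17 and 0.48 TPM in the first transcript table. The coding Aurka-203 was at 0.28, 0.31 and 0.46 TPM. The rest of the Aurkb level lay on shorter non-coding transcripts with at most 4.14 counts each per library, so that level is uncertain.

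Bub1 and Bub1b, which delay anaphase until kinetochores are attached, were at 1.31, 0.85 and 1.75 TPM and at 1.8, 1.38 and 0.71 TPM. Their ranges overlap and neither was called. Plk1, the kinase of mitotic entry and exit, was at 0.56, 0.42 and 0.52 TPM and called below (limma adjusted p = 0.0105). That call was lost without replicate 2 (adjusted p = 0.0531), without replicate 3 (0.0663) and in the second transcript table (0.11).

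The coactivator and the ubiquitin-conjugating enzyme of the anaphase-promoting complex were at the limit of detection in the gene table. Cdc20 had 1 expected count in each library, or 0.06, 0.04 and 0.04 TPM. Ube2c had 0, 2 and 1 counts, or 0, 0.09 and 0.03 TPM. A count of 0 allows up to 3 counts, which for Ube2c is 0.204 TPM in replicate 1. Both were called below (limma adjusted p = 0.000508 and 0.00104). In the second transcript table Cdc20 was still below (limma adjusted p = 0.00203), but Ube2c stood at 8.9, 7.06 and 10.49 TPM and was not. Ube2c overlaps Tnnc2 (0, 0.43 and 0.59 TPM) on the opposite strand over 1633 bases of its exons. Cdc20 shares 28.7% of the 31-base words of its coding transcript with other genes, mostly with Gm7856. Both values are therefore uncertain. Of the 14 genes listed as subunits and regulators of the anaphase-promoting complex, 13 were above 1 TPM, beside 61.8% of protein-coding genes tested. Highest were Anapc1 at 97.3, Anapc5 at 74.6 and Anapc4 at 29.2 TPM. The lowest of the 14 were Anapc13, at 2.87 TPM, and the inhibitor Fbxo5, at 0.93 TPM.

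The spindle genes ranged from among the higher members to among the lowest. Kif23, a motor of the central spindle, was at 8.14, 1.98 and 4.16 TPM, and Cenpe, the kinetochore motor, was at 4.56, 4.07 and 3.6 TPM. Both were above 1 TPM. Cenpf, a large kinetochore protein, was at 0.37, 0.15 and 0.16 TPM and below it. Cenpe exceeded Cenpf by 12.3, 27.1 and 22.5 times. In the second transcript table the ratios were 4.83, 6.52 and 6.69, and the call of Cenpf below 1 TPM was lost (limma adjusted p = 0.196).

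Tpx2, which activates Aurora A on the spindle, was at 4.21, 2.78 and 1.06 TPM and just missed the threshold (limma adjusted p = 0.0529), which it passed without replicate 3 (adjusted p = 0.0097). Tpx2 also passed in the second transcript table (limma adjusted p = 0.00201) and with TPM rescaled to protein-coding genes (0.0018). It passed narrowly with a mean-variance trend (0.0382) and over genes with mean TPM over 0.1 (0.0473). It missed with both other pseudocounts (0.0788 and 0.0649), with all annotated genes (0.373), without replicate 1 (0.21) and without replicate 2 (0.177). Kif11, the motor that separates spindle poles, was at 1.52, 0.84 and 0.99 TPM and was called neither way, but was above in the second transcript table (limma adjusted p = 0.00263). Kif20a, which works in cytokinesis, was at 0.42, 0.38 and 0.29 TPM and was called below, but stood at a mean of 1.25 TPM in the second transcript table, where it was not. Kif20a overlaps Cdc23 (6.89, 13.23 and 9.02 TPM) on the opposite strand, so its count is uncertain.

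Most licensing members and most spindle members were highest in different libraries. In log2 CPM, 30 members passed the count filter; Cdc20, Ube2c, Ccne1, Ccnb2, Ccnb1 and Aurka did not. All 9 licensing members passed. Of these, 8 were highest in replicate 2 and 8 were lowest in replicate 1. Gins2 was highest in replicate 3 and Cdt1 was lowest there. Their median shifts from the mean of the other libraries were -0.4, 0.55 and 0.02 in replicates 1, 2 and 3. Mcm2 shifted most, by -0.87 in replicate 1 and 0.97 in replicate 2. The related lists did not show these shifts to that size: the 19 other origin genes had median shifts of 0.08, 0.06 and -0.03, with 6, 9 and 4 of them highest in replicates 1, 2 and 3. The polymerases and fork factors had median shifts of -0.11, 0.06 and -0.03.

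All 6 spindle members passed the filter, and 5 of them were highest in replicate 1, with Kif20a highest in replicate 3. The median shifts were 0.95, -0.39 and -0.28, against 0.15, 0.03 and -0.19 for the other mitotic genes that passed. Tpx2, at 8.65, 2.54 and 3.22 CPM, and Kif23, at 7.13, 2.59 and 3.74 CPM, differed most, and their biological coefficients of variation of 0.412 and 0.347 were above those of 99.1% and 97.1% of protein-coding genes. Among all protein-coding genes, 35.4%, 37.1% and 27.5% were highest in replicates 1, 2 and 3, and 34.8%, 36.6% and 28.7% were lowest. Over the 30 members the median shifts nearly cancelled, at 0.08, 0.08 and -0.12. With 1 library per input amount, no test of these shifts was made.

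**Figure D2:**
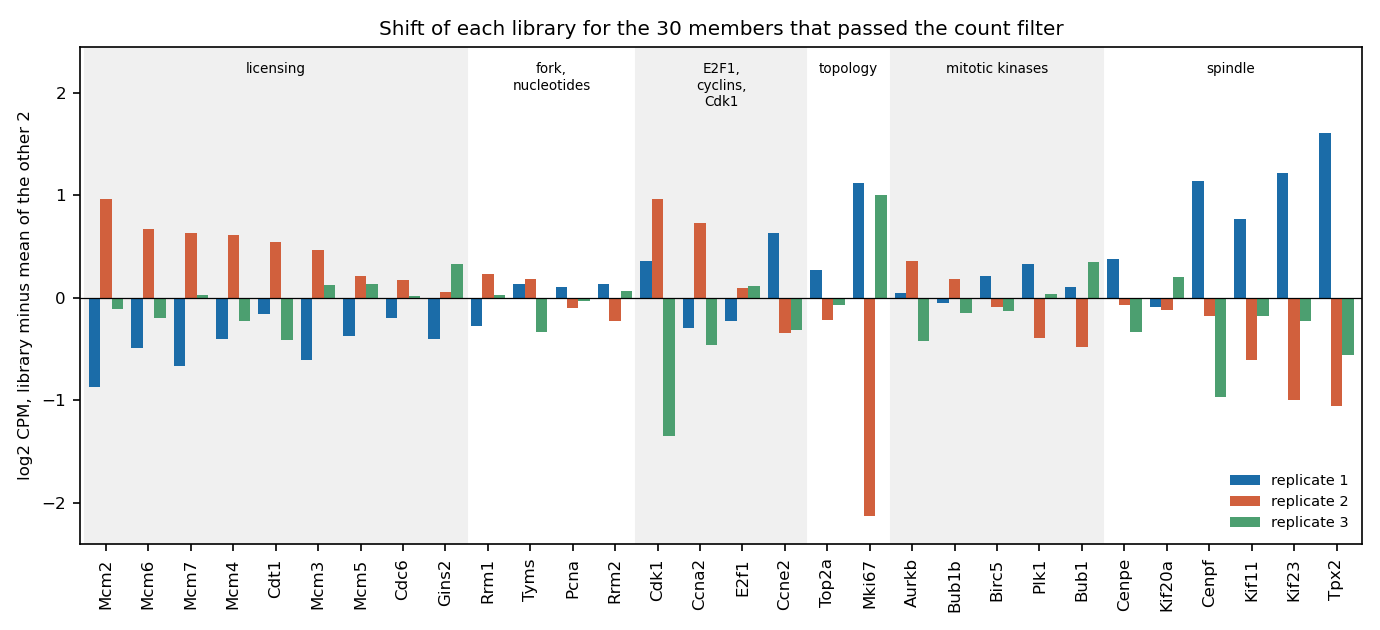
Difference of each library from the mean of the other 2 in log2 CPM, less the median difference of protein-coding genes. The 30 members that passed the count filter are shown, with 1 bar per library and members grouped by role. Replicate 2 is above 0 for all 9 licensing members and at -2.13 for Mki67, while replicate 1 is at 1.61 for Tpx2 and 1.22 for Kif23.

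Counts came partly from annotated transcripts that keep an intron. Over the members, 5.79%, 13.8% and 5.45% of expected counts fell on retained-intron transcripts. Mki67, which has no such transcript annotated, decided that share: without it the values were 19.3%, 20.8% and 18.8%, beside 27.8%, 25.0% and 24.3% for 9328 protein-coding genes above 1 TPM. By gene, the median share was 10.2% over the 34 members with at least 10 counts, and it was 10.2% over those protein-coding genes.

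Retained-intron transcripts held most of the counts for Gins2 (78.3% of the 3 libraries summed), Kif23 (65.6%), Cdt1 (62.2%), Ccnb1 (57.0%) and Tyms (54.1%). In Tyms a further 36.3% fell on transcripts marked for nonsense-mediated decay, which left 8.01% on coding ones. Pcna had 43.0% on retained introns and 51.0% on its coding transcript. Cenpe had 98.8% on coding transcripts. Mcm4, E2f1, Birc5, Plk1 and Ccnb2 had 100% there, and no retained-intron transcript of theirs is annotated.

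**Figure D3:**
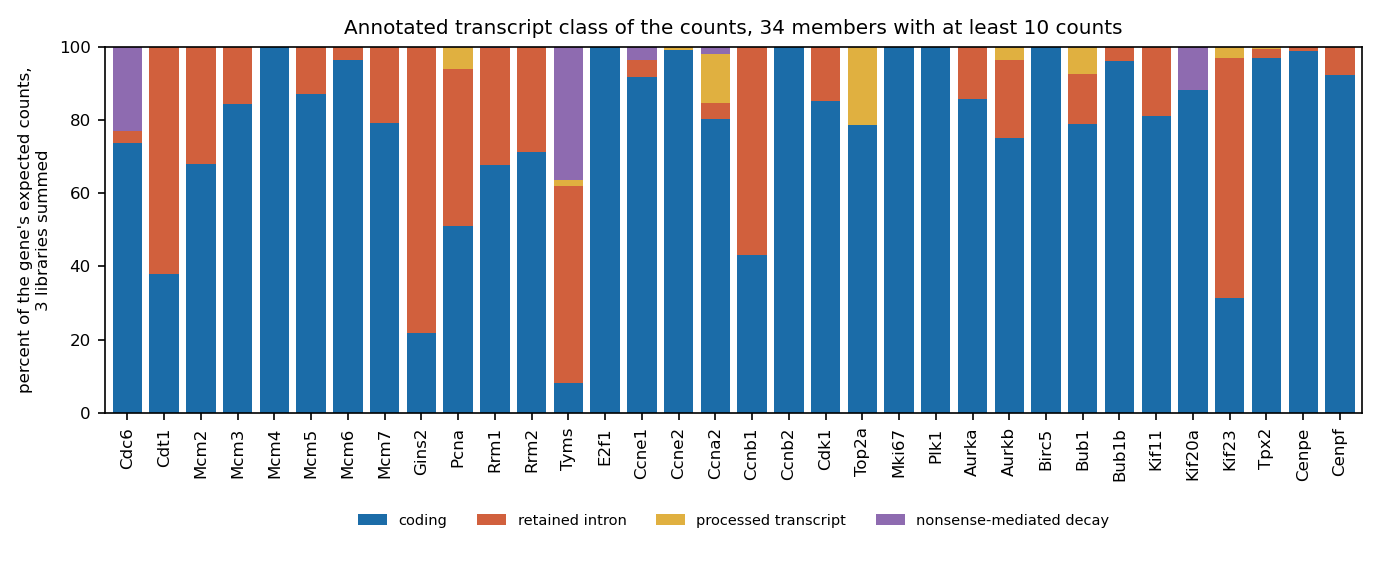
Share of each gene's expected counts, in percent and summed over the 3 libraries, by annotated transcript class, for the 34 members with at least 10 counts. Gins2 and Kif23 are mostly retained intron, Tyms has 8.01% on coding transcripts, and Mki67 has only coding counts.

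The second transcript table gave higher levels to part of the members. The median ratio of its mean to that of the gene table was 1.64 over the 36, beside 1.33 over 12921 protein-coding genes. The ratio was over 3 for 11 members (30.6%), beside 12.8% of those genes. There, 24 members were above 1 TPM, beside 57.5% of the 34376 genes tested in it, and 1 was below, beside 25.9%. Ube2c differed most, from at most 0.09 TPM to 8.9, 7.06 and 10.49 TPM, and Kif23 stood at 119.68, 73.79 and 72.83 TPM.

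Most of that Kif23 level was on 1 non-coding transcript, Kif23-202, a processed transcript of 632 bases with 0 counts in the first transcript table and a mean of 693 in the second. Its end is shown because it recurs in other annotated genes; bases 557 to 606 read as follows, and capitals mark the 31-base word found in most other genes, 688 of them.

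Kif23-202: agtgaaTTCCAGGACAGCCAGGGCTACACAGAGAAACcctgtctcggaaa

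Of the 602 words of that transcript, 33 (5.48%) occur in other genes, whereas 0 of the 3368 words of the coding transcript Kif23-201 do. Kif23-201 had 26.39, 3.86 and 17.78 expected counts in the first table and 14.37, 11.39 and 15.2 in the second. The Ube2c level in the second table was nearly all on Ube2c-202, a coding transcript of 967 bases that had a mean of 147 counts there and 0.127 in the first table. It shares 20.9% of its words with other genes, with up to 443 genes for 1 word. Birc5-202 went from a mean of 29.0 to 540 counts, and Cdk1-207, a coding transcript of 695 bases that shares 0 of its 665 words with other genes, from 0 to 127. Mki67 and Pcna, with ratios of 1.29 and 1.27, stayed close to the gene table.

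**Figure D4:**
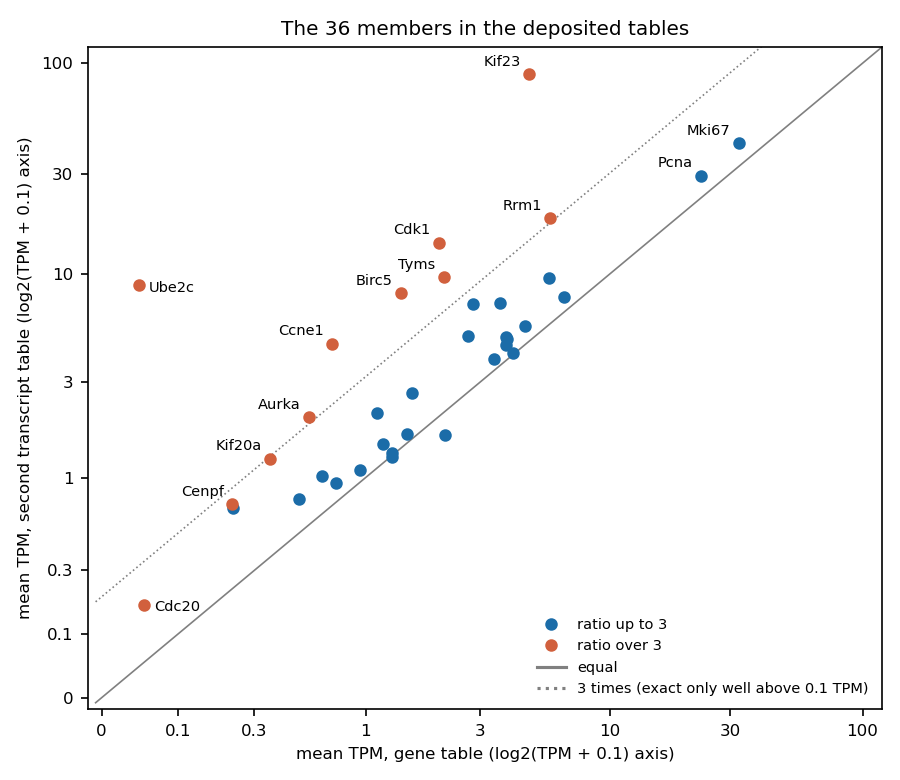
Mean TPM of the 36 members in the gene table (horizontal) and in the second transcript table (vertical), both on a log2(TPM + 0.1) axis; the solid line marks equal values. The 11 members with a ratio over 3 are named, and Kif23 and Ube2c stand furthest from the line.

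Other genes of these pathways were read from lists chosen with earlier results of the same data known, so that their counts describe levels only. Beside them, 51.1% of all genes tested and 61.8% of protein-coding genes tested were above 1 TPM. The other mitotic genes (52.3% above) and the nucleotide supply genes (58.3%) were near these shares, and the CDK inhibitors (28.6%) were lower. The remaining lists ran from 76.0% for polymerases and fork factors to 92.9% for the anaphase-promoting complex. Of 19 other origin genes 16 were above 1 TPM and 2 below. The origin recognition subunits Orc3 (65.6 TPM) and Orc4 (58.6) and the checkpoint adaptor Topbp1 (31.7) were highest, and the helicase relative Mcm8 (0.543) and the origin firing factor Ticrr (0.423) lowest. Of 25 polymerases and fork factors, 19 were above and 2 below. Here the clamp loader subunits Rfc2 (81.8 TPM) and Rfc1 (26.0) and the polymerase delta subunit Pold3 (55.4) were highest, and Rpa3 (0.493), a subunit of the single-strand binding protein, and the flap nuclease Fen1 (0.227) lowest. Every Rfc1 and Rfc2 value, from 25.51 TPM, was above every Pcna value.

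Of 12 genes of nucleotide supply, 7 were above and 1 below. Samhd1, which breaks down deoxynucleotides, was at 834.69, 777.28 and 534.73 TPM, far above every member, and was followed by the thymidine kinase Tk1 (44.4) and by Impdh2 (23.7) of guanine nucleotide synthesis. Dut, which clears dUTP, at 0.647 TPM, and the nucleotide pyrophosphatase Dctpp1, at 0.103 TPM, were lowest. Of 44 other mitotic genes, 23 were above and 9 below, with a median of 1.72 TPM. The condensin subunit Smc4 (37.4 TPM), the passenger protein Incenp (33.3) and securin, Pttg1 (13.4), were highest, and the phosphatase Cdc25c (0.233) and the motor Kif18b (0.113) lowest.

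Of 18 E2F, RB and DREAM factors, 15 (83.3%) were above 1 TPM and 0 below. Rb1, the retinoblastoma repressor, was at 61.27, 69.7 and 59.37 TPM, and its relatives Rbl1 and Rbl2 had means of 21.9 and 21.2 TPM. In the gene table, the repressor E2f4 (13.4 TPM) was the highest E2F gene, ahead of E2f3 (4.43), E2f1 (3.63), E2f5 (3.52), E2f8 (2.88), E2f6 (2.8), E2f2 (1.32) and E2f7 (0.587). E2f7 stood much higher in the second transcript table, so its place in this order is uncertain. Every E2f4 value, from 11.74 TPM, was above every E2f1 value. The neighbours E2f1 and E2f5 overlap. Mybl2 and Foxm1, which turn on late mitotic genes, were at 4.25 and 1.25 TPM, and Foxm1 was called neither way.

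Of 11 G1 cyclins and other CDKs, 9 were above and 0 below, with Cdk6 (50.6 TPM), Cdk7 (23.0) and Cdk4 (14.1) highest and the small CDK subunits Cks1b (0.77) and Cks2 (0.297) lowest. Of 7 CDK inhibitors, 2 were above and 2 below. Cdkn1a (p21), which blocks CDKs and binds Pcna, was at 179.81, 101.82 and 273.04 TPM, and its lowest value was above the highest value of any member. Cdkn1b (p27) had a mean of 8.99 TPM. Cdkn1c (1.0), Cdkn2c (0.987) and Cdkn2b (0.89) were called neither way, and Cdkn2d (0.543) and Cdkn2a (0.0667) were below. Both Cdkn1a and Mki67 were lowest in replicate 2.

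**Figure D5:**
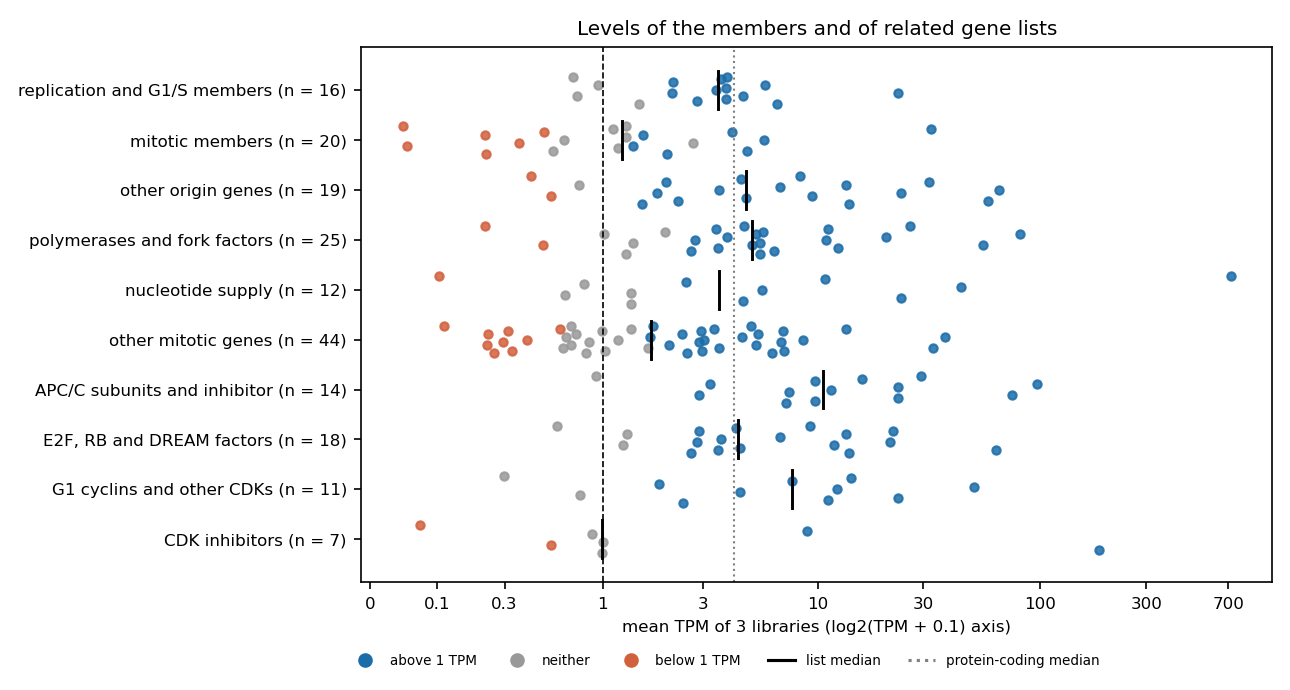
Mean TPM of each gene, on a log2(TPM + 0.1) axis, for the members split by role and for 8 related gene lists; colours give the call against 1 TPM, black bars the list medians. The mitotic members and the other mitotic genes have medians of 1.24 and 1.72 TPM, under the protein-coding median of 4.17 TPM.

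Libraries held 12532722, 18395358 and 18237730 expected counts in replicates 1, 2 and 3, and the members took 0.0532%, 0.0264% and 0.0491% of those assigned to genes. Macrophage markers fitted the label, with 10 of 10 above 1 TPM and Adgre1, which encodes F4/80, highest at 345 TPM. Of the markers of other cells, 0 were called above 1 TPM, and the highest were Kit at 0.66 TPM (myeloid progenitors), Ms4a1 at 0.127 (lymphoid), S100a9 at 0.103 (neutrophil), Hba-a1 at 0.1 (erythroid) and Pecam1 at 1.59 (stromal and endothelial). Mpo and Elane, Cd3e and Nkg7, S100a8 and Ly6g, and Hbb-bs were at 0 in all libraries. The summed progenitor markers, which dividing marrow precursors carry, were lowest in the library where Mki67 was lowest. Those sums rested on 23, 8 and 25 expected counts with Kit the largest part, and 0 of the 6 markers passed the count filter. The stromal list summed to 1.19, 3.41 and 2.78 TPM, lowest and highest in the libraries where most licensing members were. The lymphoid, neutrophil and erythroid lists summed to at most 0.35, 0.53 and 0.29 TPM. The part of these cells in the differences between libraries was not tested.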

How the data were processed

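Total RNA-seq libraries from the chromatin fraction, depleted of ribosomal RNA, were labelled as 1 group of 3 biological replicates. The unit of the deposited gene table and first transcript table is the expected count, with TPM beside it, per the file headers. Estimated counts, again with TPM, fill the second transcript table. Per the text deposited beside each sample, they use mm10 and annotation release M21. Which tools the authors ran, and whether they counted by strand, is not given in the sources used here.

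Rows that name no gene (1.045%, 0.425% and 0.4008% of counts) were left out. Levels were tested with limma 3.58.1 (intercept-only, log2(TPM + 0.1), one-sided against 1 TPM, 24180 genes), a scale that understates differences of low genes. The spread came from edgeR 4.0.16 on expected counts rounded to whole numbers (TMM, filterByExpr, 14140 genes). DESeq2 1.42.0 size factors were an alternative. The fit was tested on simulated data. Estimated counts are not molecules, so limits from counts cover counting error only. Transcripts were compared by 31-base words. Sequences are from RefSeq (GRCm38.p6) and the M21 transcripts.

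The members and lists were chosen with earlier results of these data known. Named were all members, the 3 highest and 2 lowest of each pathway list, all CDK inhibitors and E2F genes with Rb1, Rbl1, Rbl2, Foxm1 and Mybl2, and the highest marker of each cell type.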

Additional observations from a re-analysis of the deposited data

How the results depend on the processing

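No paired analysis was possible because only 1 group was labelled. The members above 1 TPM numbered 19, and 2 at a floor of 5 TPM, 11 with all annotated genes tested and 30 with TPM rescaled to protein-coding genes. Those below numbered 6, and 23 at 5 TPM, 1 in the second transcript table and 2 with rescaled TPM. Floors other than 1 TPM are given for the members only. Except for the second table, no share over all genes was worked out under these other settings. Whether the members differ from all genes there was not tested. Rescaling gave 11 genes of nucleotide supply (main 7) and 6 CDK inhibitors (main 2) above. The other mitotic genes above went from 23 to 14 with all genes and 37 in the second table. The median of 1.81 TPM became 4.35 in the second table, 5.73 when rescaled and 1.57 without Mki67, which was chosen after seeing the data. Median shifts became -0.04 in replicate 2 (second table) and 0.01 in replicate 3 (TPM). The retained-intron share of 8.35% became 13.5% in the second table and 19.6% without Mki67. Plk1 (0.61, rescaled), Kif20a (0.22 in the second table, 0.17 rescaled) and Ube2c (3.0, second table), each called below, turned to levels over the floor on the log2 scale. Rescaling raises every protein-coding gene because these held 29.8% to 33.4% of TPM, and it leaves all other genes out of the test. Otherwise the cause was not tested.

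Leaving out each library gave 17 to 18 members above and 5 to 6 below, and medians of 1.78 to 1.84 TPM. The retained-intron share was 5.62% without replicate 2 and up to 9.8%. List counts above were 15 to 16 (origin), 19 to 20 (fork), 7 (nucleotide supply), 21 to 22 (other mitotic), 13 (APC/C), 15 (E2F, RB and DREAM), 7 to 8 (G1 cyclins) and 2 (CDK inhibitors). Both pseudocounts tried left all 36 single-member calls as they were. With 0 to 20 counts per library, Cdc20, Ube2c, Ccnb2, Ccnb1, Ccne1, Aurka, Rrm2, Plk1 and Kif20a are limited by depth. The 3 libraries cannot separate input amount from replicate.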

Other observations

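Some genes outside the 36 also stood much higher in the second transcript table than in the gene table. E2f7 had means of 26.3 and 0.587 TPM, Cdc25c 11.9 and 0.233, and Pecam1 9.93 and 1.59. Samhd1, Rfc2 and Anapc1 were close, with 798 and 716, 77.7 and 81.8, and 104 and 97.3 TPM. The reason was not tested. Of the 36 members, 8 share over 20% of the words of their longest coding transcript with other genes. These are Ccnb1, Cdc20, Gins2, Kif20a, Mcm7, Pcna, Tyms and Ube2c, named after their values were seen. A gene on the opposite strand overlaps 12 members, and it is protein-coding for 7 of them.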
